A study of Mus musculus with 8 samples.

Results

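The genes described are the nuclear-encoded subunits and assembly factors of mitochondrial complex I. They are all protein-coding genes of the GRCm38 annotation whose symbol starts with Ndufa, Ndufb, Ndufc, Ndufs, Ndufv, Ndufab or Ndufaf, 46 of the 54749 genes with a transcript in the count files. By class they are 7 core subunits of the Ndufs and Ndufv groups, 4 accessory Ndufs and Ndufv subunits, 15 Ndufa and Ndufab genes, 12 Ndufb and Ndufc genes and 8 assembly factors (Ndufaf1 to Ndufaf8). The rule used names only, not measured values, but it was chosen with earlier results of these data known.

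The study asked how losing asrij affects mitochondria, endosomes and the proteasome in hematopoietic stem cells (HSCs), and whether the cells then resemble aged ones. Asrij is the product of the gene Ociad1 and is found on mitochondria and endosomes. RNA was sequenced from long-term (LT) HSCs of bone marrow, 1 library per mouse, from 4 homozygous asrij floxed mice (libraries 1, 3, 4 and 5) and 4 asrij whole-body knockout (KO) mice (libraries 2, 3, 4 and 5). The labels give an age of 6 months for all 8 mice and no treatment. Floxed mice were the controls. The KO is whole-body, so asrij was also missing from the cells around the sorted ones. The methods name C57BL/6J as the wild type strain, state that both genders were used, and give the sort for RNA-Seq as LSK CD150+ CD48+, whereas other experiments on LT-HSCs in the study used CD48- cells.

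Complex I (NADH:ubiquinone oxidoreductase) takes electrons from NADH, passes them along a chain of iron-sulfur clusters to ubiquinone, and uses the energy to pump protons across the inner mitochondrial membrane. The N module oxidizes NADH, the Q module reduces ubiquinone, and the P module, which holds all subunits coded by mitochondrial DNA (mtDNA), pumps protons. Core subunits carry out catalysis, accessory subunits surround and stabilize them, and assembly factors build the complex without staying in it. LT-HSCs are known for a low reliance on mitochondrial respiration while quiescent.

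The targeted gene Ociad1 was at 41.6, 66.9, 36.7 and 31.3 CPM (gene counts scaled to a common TMM-normalized library size) in floxed libraries 1, 3, 4 and 5. It was at 15.2, 19.7, 12.5 and 11.7 CPM in KO libraries 2, 3, 4 and 5, below every floxed library (log2 fold change -1.58 ± 0.27 SE, adjusted p = 0.0249, edgeR quasi-likelihood test). Gene counts summed to between 23412829 and 44874882 per library. In both genotypes the libraries numbered 1-3 and those numbered 4-5 stood apart across genes, a division seen in the counts that the labels do not describe as a batch. Haemoglobin genes took 2.85% to 7.67% of gene counts in floxed and 12.2% to 24.3% in KO libraries. Summed CPM of 9 erythroid markers was 27518 to 69329 in floxed and 121367 to 294200 in KO libraries, and that of 5 megakaryocyte and platelet markers was 61.7 to 127 and 202 to 242. Neutrophil markers (7 genes) summed to 15468 to 48383 CPM in floxed and 23043 to 29519 in KO libraries. B and plasma cell markers (7 genes) summed to 975 to 1313 and 913 to 1128 CPM, and T and NK markers (5 genes) to 35.8 to 78.3 and 38.4 to 41.2. Most of each B and plasma cell sum was Ighm, and single genes of that list went both ways. Cd79a was higher in KO (log2 fold change 0.81, adjusted p = 0.0408, edgeR) and Jchain lower (-1.66, adjusted p = 0.0239, edgeR). Over all genes tested 1.22% were called higher and 1.75% lower. HSC markers (12 genes) summed to 389 to 920 CPM in floxed and 699 to 903 in KO libraries. Most of each sum was Ly6e alone, at 269 to 784 CPM in floxed and 565 to 780 in KO libraries. Kit was at 51.6 to 60.2 and 46.8 to 53.2 CPM, and Slamf1 at 0.881 to 2.19 and 1.56 to 4.39. Procr, a defining HSC marker, was under 1 CPM in all 8 libraries. The part of the cells with these markers in the complex I values was not tested. Leaving out the haemoglobin genes gave a median complex I log2 fold change of 0.43. That fit keeps all other RNA of such cells in the counts, so it cannot test their part.

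A sequence window around the transcription start (RefSeq, GRCm38.p6, 250 bases before to 50 after) was matched by symbol for 40 of the 46 genes. It was searched on both strands for short cores bound by factors known as regulators of respiratory chain genes: CCGGAAG (ETS family, which includes GABPA), GCATGCG (NRF1) and AAGATGG (YY1). GCATGCG nearly equals its reverse complement, so matches on the 2 strands overlap. The ETS core was in the windows of 6 members (15% of those matched, against 12.9% of 17491 protein-coding genes and 8.86% of all 32851 windows). The NRF1 core was in 5 (12.5%, against 4.95% of coding genes and 3.58% of windows) and the YY1 core in 8 (20%, against 7.18% and 6.34%). At least 1 core was in 18 of 40 members (45%, against 22.5% of coding genes and 17.3% of all windows). A match is a description of letters, not a binding site. The stretches below show the match nearest the 5′ end in each member that the naming rule picks and that holds a core, read 5′ to 3′ on the gene's strand with 11 bases either side. The core is in capitals, in its forward or reverse form.
Ndufa6, NRF1, 83 bases before the start, chr15:82354357-82354385, minus strand: tccgcggtagaGCATGCGcattgcagagc
Ndufb7, ETS, 20 bases before, chr8:83566727-83566755, plus strand: gcctagatgacCCGGAAGacactgaaggg
Ndufs3, ETS, 27 bases before, chr2:90904731-90904759, minus strand: cccgcgtccgcCCGGAAGaagagtcactg
Ndufs7, YY1, from base 24 after the start, chr10:80249462-80249490, plus strand: aggccgaggccAAGATGGcggcgctggcg
Ndufs8, ETS (reverse form), from base 15 after, chr19:3912742-3912770, minus strand: ttaggctccgcCTTCCGGttgaaccgcat
Ndufaf4, NRF1 (reverse form), 112 bases before, chr4:24897960-24897988, plus strand: ccagatgtctgCGCATGCgcctgtgcgga
Ndufaf8, ETS, 8 bases before, chr11:120098915-120098943, plus strand: cgcgttcgactCCGGAAGaggcagggccc

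Ndufaf8 holds the YY1 core as well, from base 10 after its start.

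Most complex I transcripts had a higher mean in KO than in floxed LT-HSCs, unevenly over the classes and libraries, but no member passed the adjusted test. Summed over the 46 members, floxed libraries 1, 3, 4 and 5 held 835, 789, 758 and 713 CPM. KO libraries 2, 3, 4 and 5 held 1255, 1099, 848 and 831 CPM. The KO mean was 1.3 times the floxed mean, and the groups overlapped, since KO library 5 lay below floxed library 1. In bulk samples of sorted cells, more cells of a type and more RNA per cell cannot be told apart.

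Of the 46 members, 45 passed the filter on low counts. None had an adjusted p under 0.05 in either direction (edgeR quasi-likelihood test), where 1.22% of the 21902 genes tested were called higher and 1.75% lower. At an unadjusted p under 0.05, 11 members were higher and 0 lower, against 9.63% and 12.1% of all genes tested. The log2 fold change was above 0 for 38 of 45 members (49.6% of all genes tested) and its median was 0.44 (-0.01 over all genes tested). In 7 members every KO library lay above every floxed library (7.1% of all genes tested) and in 0 every KO library lay below (7.66%). With the study's added demand that the absolute log2 fold change exceed 1.5 there was no member, against 0.452% higher and 0.74% lower of all genes. Fitted standard errors ran from 0.13 to 0.68 with a median of 0.25. The median log2 fold change was 0.23 without KO library 2 and 0.26 with same-numbered libraries 3, 4 and 5 as pairs (0.04 over all genes tested). Other fits differed in the count called at an adjusted p under 0.05. DESeq2 gave 4 higher (Ndufv1, Ndufb9, Ndufb10 and Ndufc2, where 5.12% of all genes tested were higher and 6.05% lower). Without floxed library 3 edgeR gave 5, the same 4 and Ndufaf3 (8.9% higher and 8.64% lower). Without the filter on low counts it gave 1, Ndufb9 (0.961% and 0.956%). With limma-voom (1.2% and 1.01%) and with same-numbered libraries 3, 4 and 5 as pairs in edgeR (0.13% and 0.0926%) it was 0. None of these gave a member lower in KO.

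**Figure D1:**
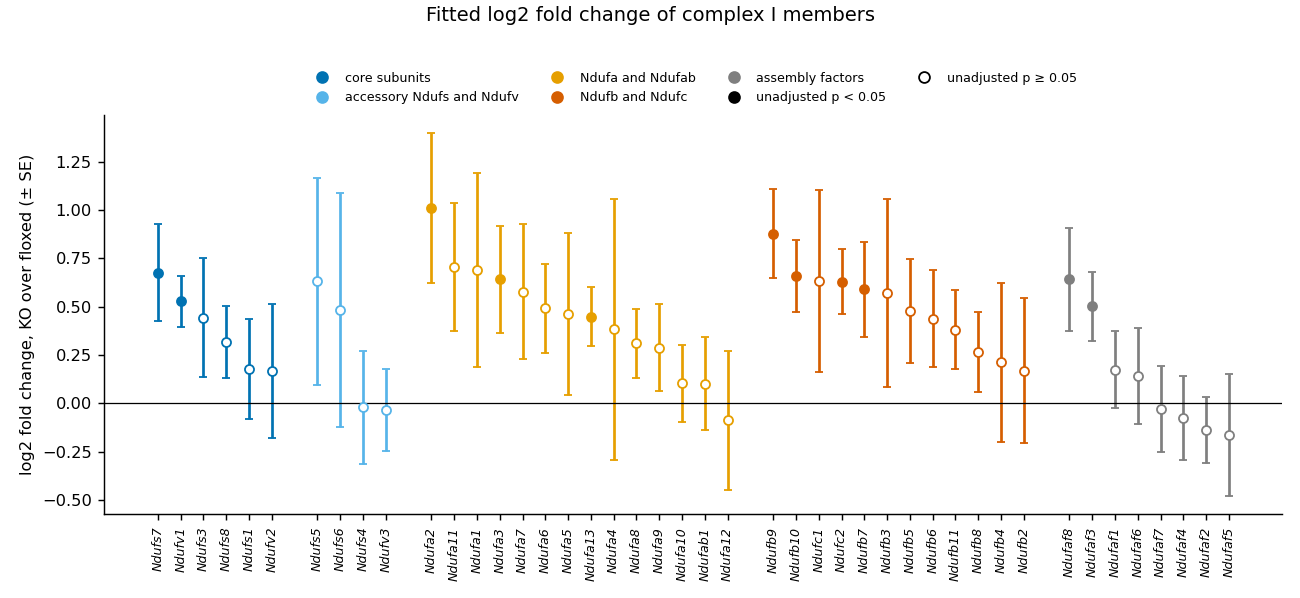
Fitted log2 fold change of KO over floxed (vertical axis, ± SE, 4 libraries per group) for 44 of the 45 members tested, grouped and coloured by class. Filled points have an unadjusted p under 0.05. All 12 Ndufb and Ndufc genes and the 6 core subunits drawn lie above 0, and the 8 assembly factors lie on both sides.

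The 7 core subunits carry the flavin, the iron-sulfur clusters and the ubiquinone site. Their summed level was 211, 217, 190 and 191 CPM in floxed and 300.1, 272, 240.2 and 233 CPM in KO libraries, with no overlap. All 7 had a log2 fold change above 0, with a median of 0.32. The 8 N-module genes, core and accessory, had a median of 0.17 with 5 of 8 above 0.

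Ndufv1 (chr19:4007384-4012806, minus strand, 10 exons), the NADH-binding flavoprotein of the N module, had the lowest p of the members. It stood at 37.7, 47.1, 41.3 and 45.4 CPM in floxed and 66.6, 61.7, 59 and 60 CPM in KO libraries. The groups did not overlap, and libraries of both number sets lay close together in the KO (log2 fold change 0.53 ± 0.13 SE, adjusted p = 0.0612, edgeR). Ndufs7 (chr10:80249121-80256794, plus strand), which holds the last iron-sulfur cluster before ubiquinone, was at 20.9, 16.5, 30.4 and 30.9 CPM in floxed and 36.9, 27.6, 47.9 and 45 CPM in KO libraries. Its libraries 4 and 5 were the highest of each genotype and the groups overlapped (0.68 ± 0.25, adjusted p = 0.157, edgeR). The YY1 core in its window is printed above.

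Further core subunits had smaller differences. Ndufs3 (log2 fold change 0.44) shares 35.5% of its 50-base stretches with the gene Gm12251, so its count is less certain. Ndufs8, another iron-sulfur subunit, had 0.32. Ndufs1, which carries several clusters of the N module, had 0.18 and overlaps the lncRNA gene Ino80dos on 44.2% of its span. Ndufv2, the partner of Ndufv1, had 0.17, with 34.8, 32.9, 22.5 and 16.3 CPM in floxed and 41.9, 40.4, 17.6 and 19.5 CPM in KO libraries. In each genotype libraries 4 and 5 were the lower ones, and the genotypes overlapped.

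The Ndufb and Ndufc genes code for accessory subunits of the membrane arm, in the P module. All 12 had a log2 fold change above 0, with a median of 0.52. Their summed level was 229, 206, 224 and 216 CPM in floxed libraries. In KO libraries it was 398, 337, 280.1 and 273 CPM, all above the floxed libraries.

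**Figure D2:**
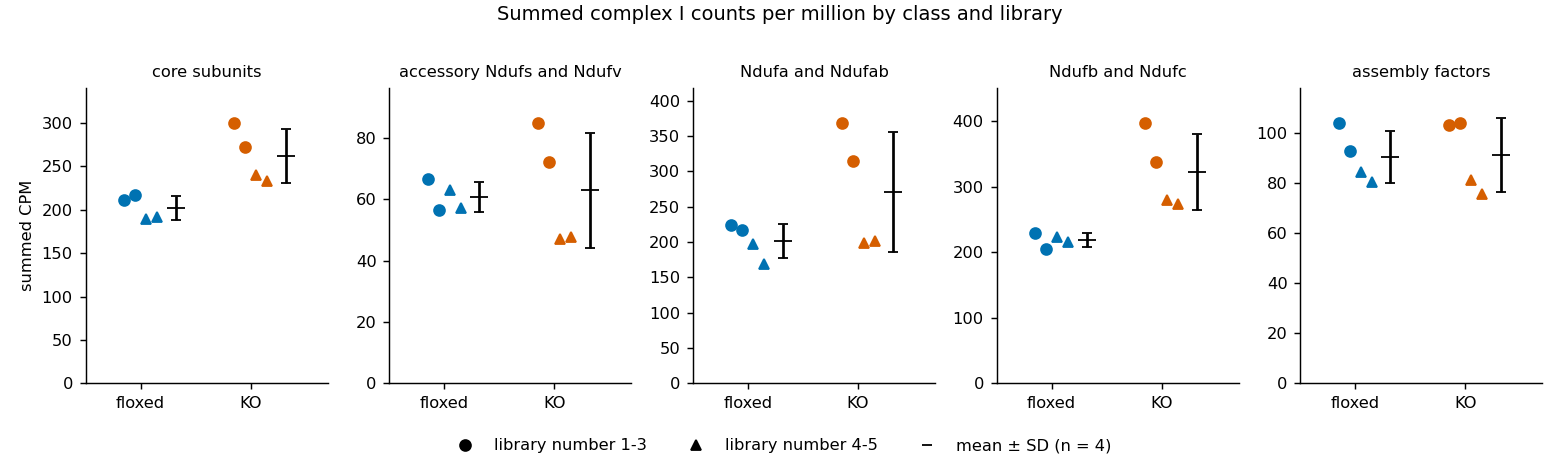
Summed CPM of each class (vertical axes, from 0) in the 4 floxed and 4 KO libraries, with circles for libraries numbered 1-3, triangles for 4-5 and bars for the mean ± SD. The sums of the core subunits and of the Ndufb and Ndufc genes do not overlap between genotypes, while those of the other 3 classes do.

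Ndufb9 (chr15:58933756-58939488, plus strand, 4 exons), an accessory subunit of the P module, stood at 30.5, 32.9, 28.8 and 23.8 CPM in floxed and 71.8, 62.4, 42.3 and 36.7 CPM in KO libraries. The groups did not overlap, and KO libraries 2 and 3 were the highest (0.88 ± 0.23, adjusted p = 0.0665, edgeR). Gm49356 covers 62.9% of the Ndufb9 span on the same strand and holds 255% of its count. Counts cover whole genomic spans, so reads of the shared part count for both genes, and the Ndufb9 count is less certain. The log2 fold change of Gm49356 was 0.22 (adjusted p = 0.623, edgeR).

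Ndufb10 (chr17:24722060-24724478, minus strand) overlaps no other counted gene. It was at 27.7, 21.3, 35 and 35.6 CPM in floxed and 47.7, 41.8, 47.6 and 51.7 CPM in KO libraries, without overlap (0.66 ± 0.19, adjusted p = 0.0802, edgeR). Ndufc2 (chr7:97400003-97407802, plus strand) was at 23.8, 18.1, 20.7 and 19 CPM in floxed and 38.1, 32.2, 30.4 and 25.5 CPM in KO libraries, also without overlap (0.63 ± 0.17, adjusted p = 0.0708, edgeR). Ndufb7 had the highest CPM per kb of spliced transcript of all members (87.6), a measure whose counts include introns. It was at 35.6, 27.3, 55.5 and 56 CPM in floxed and 67.7, 51.6, 72.8 and 70.1 CPM in KO libraries. Its floxed libraries 4 and 5 lay above KO library 3, so the groups overlapped (0.59 ± 0.24, adjusted p = 0.197, edgeR). Ndufb2, the lowest of the class per kilobase, had a log2 fold change of 0.17 and overlaps Gm42420 on 37.2% of its span.

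The Ndufa and Ndufab genes code for accessory subunits spread over all modules. Of the 14 tested, 13 had a log2 fold change above 0, with a median of 0.46. Their summed level was 224, 217, 197 and 169 CPM in floxed and 369, 314, 199 and 202 CPM in KO libraries. Only KO libraries 2 and 3 lay above all the floxed ones.

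Ndufa2, of the N module, had the largest log2 fold change of any member (1.01 ± 0.39, adjusted p = 0.168, edgeR). It was at 16.5, 13.6, 9.65 and 7.66 CPM in floxed and 40.2, 28, 13.6 and 13.7 CPM in KO libraries, so KO libraries 4 and 5 lay within the floxed range. Ndufa13 lies entirely within the span of Yjefn3, which had almost the same log2 fold change (0.45 for both), and the 2 genes cannot be told apart here. Ndufa6, highest of the class per kilobase with 42.4 CPM per kb, had 0.49 and carries the NRF1 core printed above.

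Ndufab1 codes for the mitochondrial acyl carrier protein, which also works in fatty acid synthesis outside the complex. It had a log2 fold change of 0.10. Ndufa4l2, a form known for its induction in hypoxia, had 8 counts in all over the 8 libraries and did not pass the filter. Ndufa4, whose product is now also assigned to complex IV, was at 17.9, 17.3, 8.72 and 5.94 CPM in floxed and 31, 25.9, 4.01 and 4.09 CPM in KO libraries. KO libraries 2 and 3 were the highest of the 8 and KO libraries 4 and 5 the lowest (0.38 ± 0.68, adjusted p = 0.79, edgeR).

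Among the 4 accessory Ndufs and Ndufv subunits, 2 had a log2 fold change above 0 and the median was 0.23. Their summed level was 66.7, 56.7, 63 and 57.1 CPM in floxed and 85, 72, 47.2 and 47.6 CPM in KO libraries. KO libraries 4 and 5 were the lowest of all. Ndufv3, highest of them per kilobase, had -0.03, and Ndufs5, the lowest, had 0.63 ± 0.54, with 41.2% of its 50-base stretches shared with BC002163.

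The 8 assembly factors were 4 above and 4 below 0, with a median of 0.06. Their summed level was 104.4, 93, 84.7 and 80.6 CPM in floxed and 103, 104.3, 81.5 and 75.8 CPM in KO libraries, and the ranges overlapped almost fully. Ndufaf8, which assists Ndufaf5, was at 1.95, 3.69, 3.36 and 3.95 CPM in floxed and 5.46, 5.96, 4.15 and 4.6 CPM in KO libraries. The groups did not overlap (0.64 ± 0.26, adjusted p = 0.197, edgeR). Ndufaf3, which acts with Ndufaf4 in building the Q module, likewise did not overlap and had 0.50 (adjusted p = 0.144, edgeR). Ndufaf4 itself had -0.08. Ndufaf2, the highest of the assembly factors per kilobase of spliced transcript, had -0.14. Its counts cover a span of 155909 bases with introns, part of which it shares with Smim15 (count 92.2% of its own), and 80.9% of its 50-base stretches are shared with B230220B15Rik.

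**Figure D3:**
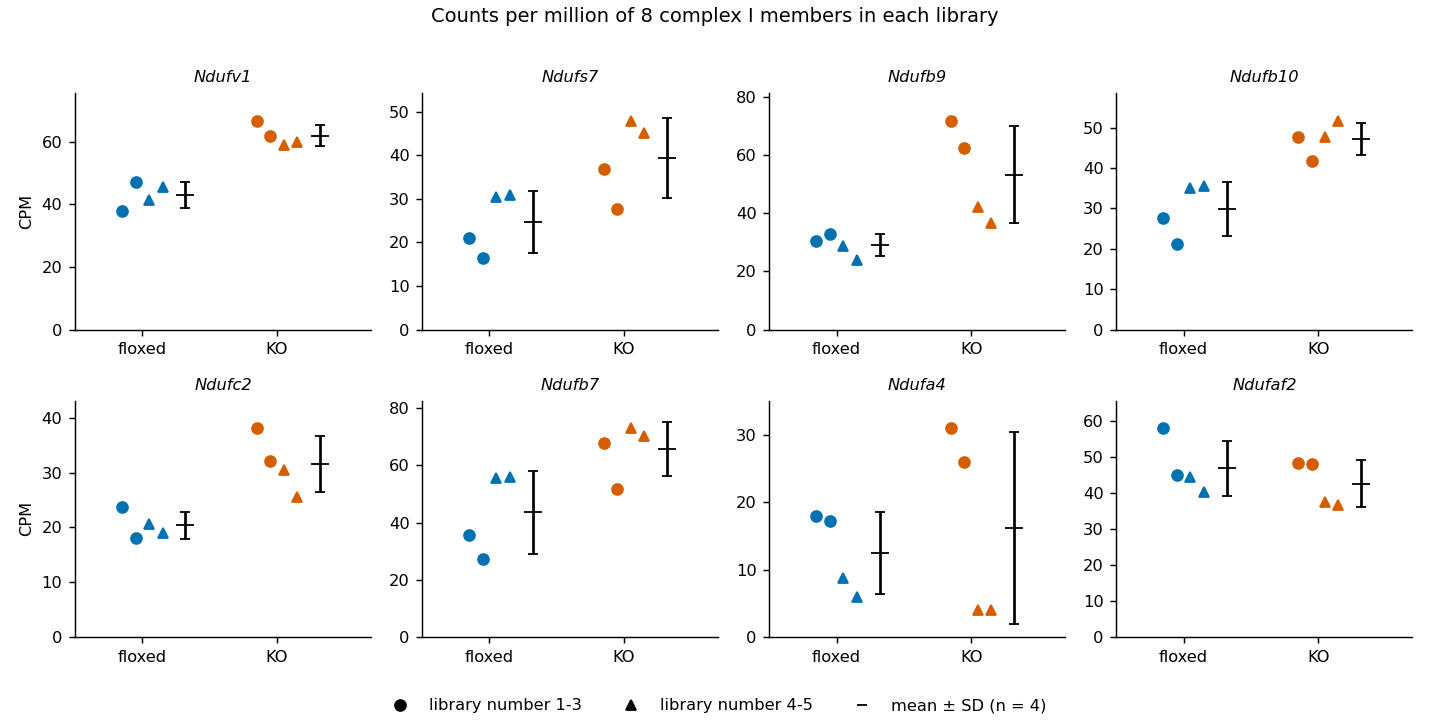
CPM (vertical axes, from 0) of 8 members in the 4 floxed and 4 KO libraries, with circles for libraries numbered 1-3, triangles for 4-5 and bars for the mean ± SD. Ndufv1, Ndufb9, Ndufb10 and Ndufc2 do not overlap between genotypes, Ndufa4 follows library number, and Ndufaf2 overlaps.

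The comparison was then made within each set of library numbers. The fit held a mean for each genotype and number set, with the spread taken from all 8 libraries. Within numbers 1-3 (2 libraries per genotype), 41 of 45 members had a log2 fold change above 0 (49% of all genes tested) with a median of 0.60. At an unadjusted p under 0.05, 27 were higher (13.9% of all genes tested) and 0 lower (14.4%). In all, 11 rose at an adjusted p under 0.05 and 0 fell (edgeR), against 3.98% and 4.59% of all genes tested. They were Ndufa1, Ndufa2, Ndufa3, Ndufa13, Ndufb3, Ndufb7, Ndufb9, Ndufb10, Ndufb11, Ndufc2 and Ndufs7. Within numbers 4-5, 31 of 45 were above 0 (50.5% of all genes tested) with a median of 0.19, and 0 passed in either direction (1.21% and 0.731% of all genes tested). There, 7 members had an unadjusted p under 0.05 and were higher (13.2% of all genes tested) and 1, Ndufa4, was lower (11.7%).

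In both sets, 30 members were above 0 (33.8% of all genes tested) and 3 below 0 (34.3%). The log2 fold change was larger within 1-3 for 38 of 45 members (48% of all genes tested). The difference itself, tested as an interaction, passed for 0 members at an adjusted p under 0.05 and for 6 at an unadjusted p under 0.05 (8.51% of all genes tested). These were Ndufa1, Ndufa3, Ndufa4, Ndufb3, Ndufb11 and Ndufv3. Ndufa4 had 0.69 within 1-3 and -0.85 within 4-5 (interaction adjusted p = 0.57, edgeR). By contrast, Ndufs7 had 0.79 and 0.60, and Ndufv1 0.60 and 0.46.

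With library numbers 1-3 or 4-5 as a term in the fit, 11 members rose at an adjusted p under 0.05 and 0 fell, against 8.88% and 9.65% of all genes tested (edgeR). They were 5 Ndufb and Ndufc genes (Ndufb5, Ndufb7, Ndufb9, Ndufb10 and Ndufc2), 3 Ndufa genes (Ndufa2, Ndufa6 and Ndufa13), the core subunits Ndufs7 and Ndufv1, and the assembly factor Ndufaf3. In that fit Ndufb9 had 0.84 ± 0.14 (adjusted p = 0.00659), Ndufs7 0.69 ± 0.13 (adjusted p = 0.00976) and Ndufv1 0.53 ± 0.11 (adjusted p = 0.0136). The spread in this fit is that of the 8 libraries around terms for genotype and number set. It also holds any difference of the genotype effect between the number sets. The number sets were seen in earlier results of these counts, and the adjusted p-values do not allow for that choice.

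**Figure D4:**
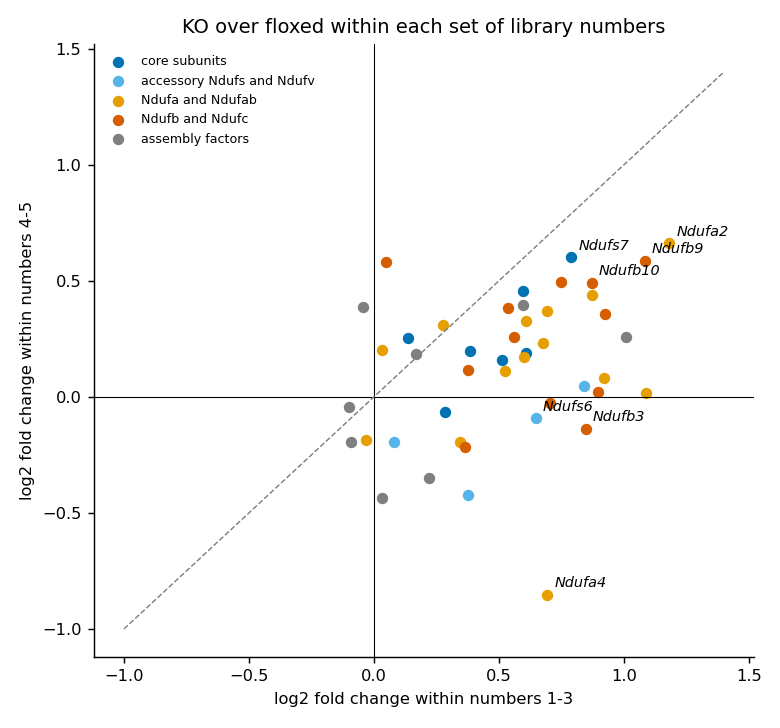
Log2 fold change of KO over floxed within library numbers 1-3 (horizontal axis) and within 4-5 (vertical axis) for the 45 members tested, coloured by class, with a dashed line of equality. Most points lie right of 0 and below the line, and Ndufa4 lies lowest at -0.85 within 4-5.

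Members also differed between the number sets within a genotype. In floxed libraries 34 of 45 members were higher in numbers 1-3 than in 4-5, with a median log2 difference of 0.35 (0.06 over all genes tested). In KO libraries 41 of 45 were, with a median of 0.62 (0.01 over all genes). Ndufa4 and Ndufs6 had the largest such differences in floxed libraries, 1.18 and 1.17, whereas Ndufb7 and Ndufs7 had -0.82 and -0.69. These 4 were named after their values were seen. Over the 45 members, this difference in floxed libraries had a Spearman correlation with the GC content of the counted transcript of -0.57 (-0.42 over all genes tested).

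Members varied together across the 8 libraries. The mean Pearson correlation between pairs of members, on log2(CPM + 1) with library number and genotype in it, was 0.48, against 0.00 over all genes tested. It was 0.61 within Ndufa and Ndufab, 0.57 within Ndufb and Ndufc and 0.31 within the core subunits. As a description, genes of complexes II to V had 0.40.

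Members with short transcripts had the larger log2 fold changes. The 22 members under 1 kb of spliced transcript had a median of 0.58 and the 23 of 1 kb or more a median of 0.17. Over all genes tested the medians were 0.14 and -0.04. Spearman's correlation of log2 fold change with length was -0.73 over 45 members and -0.20 over all genes tested, across genes that share libraries and are not independent. Among the 37 subunits alone it was -0.71. Lengths are those of the transcript with the highest count, which for Ndufab1 (3.479 kb) and Ndufb2 (4.371 kb) is a long form. With each library's trends with GC content and length removed, an alternative chosen after seeing the data, the median was 0.28. In that fit, 0 members were called at an adjusted p under 0.05 (edgeR, 1.9% of all genes tested higher and 2.31% lower). Pairing same-numbered libraries as well also gave 0 (0.0926% and 0.0602%). With the library-number term instead, 6 rose and 0 fell (6.68% and 6.54% of all genes tested): Ndufa2, Ndufb5, Ndufb9, Ndufb10, Ndufc2 and Ndufs7.

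**Figure D5:**
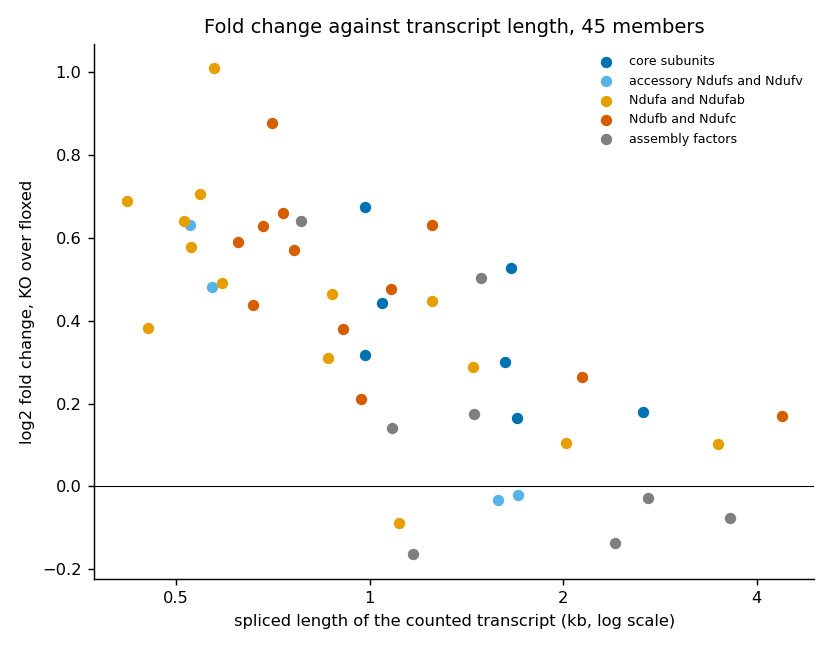
Log2 fold change of KO over floxed (vertical axis) against spliced length of the counted transcript in kb (horizontal log axis) for the 45 members tested, coloured by class. Members under 1 kb all lie above 0, while those below 0 are all longer than 1 kb.

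Genes of the complex outside these classes had smaller medians than the 45 members together. The 7 complex I genes of mtDNA, coding for the proton-pumping core, had a median log2 fold change of 0.11 with 4 above 0 and 0 called. mt-Nd1 had 0.21 and mt-Nd5 -0.60. The 11 other assembly factors found had a median of 0.00 with 6 above 0, and 8 regulators of mitochondrial biogenesis, such as Nrf1, Gabpa and Yy1, a median of 0.04. In neither list was a gene called in the fit of all 8 libraries. Of these regulators Gabpa was the exception in other fits. It was at 80.9, 80.5, 48.2 and 54.6 CPM in floxed and 41, 49.4, 40.1 and 38.1 CPM in KO libraries, with only KO library 3 above the lowest floxed one (log2 fold change -0.65 ± 0.20, adjusted p = 0.102, edgeR). It fell with the library-number term (-0.62, adjusted p = 0.0131, edgeR), where 9.65% of all genes tested were called lower. Within numbers 1-3, 1 regulator, Gabpa, was called lower (4.59% of all genes tested). Gabpa was named with these values after they were seen.

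Nuclear genes of the other respiratory complexes lay close to complex I. The list of complexes II to V was taken by symbol, so it can hold genes whose products are not subunits. Atp5o is in it as separate gene entries. Of the 46 entries tested, 41 were above 0 (49.6% of all genes tested), with a median of 0.42. Complex II had 0.22, complex III 0.37, complex IV 0.63 and complex V (ATP synthase) 0.48. Only Cox6b2, a complex IV subunit known from testis and named after its value was seen, passed the adjusted test (1.12 ± 0.23, adjusted p = 0.0365, edgeR), and it did not with same-numbered libraries as pairs (0.88, adjusted p = 0.131). In the fit of all 8 libraries 1.22% of all genes tested were called higher and 1.75% lower. With the library-number term 18 of the 46 rose and 0 fell, against 8.88% and 9.65% of all genes tested. Within numbers 1-3, 12 rose and 0 fell, against 3.98% and 4.59%. These lists share the libraries of complex I, and no test of a difference between them was made.

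Members with and without a promoter core had nearly equal log2 fold changes. The median was 0.44 in the 18 members with any core and 0.41 in the 22 without. With the YY1 core it was 0.56 (8 members), with the NRF1 core 0.31 (5 members) and with the ETS core 0.44 (6 members).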

How the data were processed

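The members and gene lists were chosen with earlier results of these data known. Per the labels and methods, the authors trimmed reads with Trim Galore after FastQC, aligned them to GRCm38/mm10 with Bowtie2, and deposited unnormalized counts for 138930 transcripts per library. The counting tool and its strand setting are not given in the sources used here. In 7 files the values are tab-separated under a comma-separated name and so were recorded as another unit, although the authors deposited whole-number counts in all 8.

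Genes of transcripts came from GENCODE M21 (138789 matched), and a gene's count was that of its transcript with the highest total. Counts cover whole genomic spans with introns and both strands: in 4354 of 4354 nested pairs the outer count was at least the inner, with 2891 pairs on opposite strands. Overlapping genes therefore share reads. Levels per kilobase divide these counts by spliced length, so members with long introns can rank too high. Of the members, 18 overlap another counted gene and 13 share over 10% of their 50-base stretches with other genes.

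Gene counts were filtered (filterByExpr), TMM-normalized and tested with edgeR 4.0.16 (glmQLFit, R 4.3.3) over all 8 libraries, with Benjamini-Hochberg adjustment. CPM values use TMM-scaled library sizes. On simulated data without the library-number division, 200 of 21348 genes were changed by a log2 fold change of 2.5 in either direction. There edgeR recovered 95.5% with 3.05% false calls, limma-voom (3.58.1) 96% with 3.52% and DESeq2 (1.42.0) 99% with 23.6%. That change exceeds the largest of any member (1.01), so the shares recovered do not apply to changes of the members' size. Same-numbered libraries deviated together (correlations 0.366, 0.381 and 0.554 for numbers 3, 4 and 5), although mice differed and other pairs within numbers 1-3 or 4-5 did so too (0.344 to 0.58). The named genes were Ociad1, the core subunits, up to 5 members in each direction with non-overlapping groups, the highest and lowest of each class per kilobase, Ndufa4, Ndufa4l2 and Ndufab1, and any member that was called, filtered out or had an interaction with opposite signs. Further members were named after their values were seen, as with those in the fits by library number. Alternatives covered normalization, filter, tool, transcript summing, haemoglobin genes, overlapping genes, blocks, GC content with length, and each library left out. Motifs were searched in RefSeq windows. Values of 1 core subunit are not reported here by themselves, though sums, counts and medians include it.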

Additional observations from a re-analysis of the deposited data

How the results depend on the processing

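The number of members higher in KO at an adjusted p under 0.05 was 0 in the edgeR fit (1.22% of all genes tested). It was 1 (Ndufb9) without the filter on low counts (0.961%) and 4 with DESeq2 (Ndufv1, Ndufb9, Ndufb10 and Ndufc2, against 5.12%). DESeq2 had the most frequent false calls in simulation. The number was 11 with a term for numbers 4-5 (8.88%) and 11 within numbers 1-3 (3.98%). GC and length correction with the term for numbers 4-5 gave 6 (6.68%). That correction was chosen after seeing the data, and the number sets were seen in earlier results of these counts. Leaving out 1 library in turn gave 0 to 5, where 5 came without floxed library 3 (8.9%). No setting gave a member lower in KO. Under the replicate block of numbers 3 to 5, which pairs same-numbered libraries and leaves 6 libraries, 0 members passed and the median was 0.26. The same libraries without the block gave 0.26, and GC and length correction with the replicate block gave 0.17. Leaving out 1 library gave a median of 0.23 (without KO library 2) to 0.54. Among the 28 members that overlap no other counted gene, 3 had non-overlapping groups and were higher (7.1% of all genes tested). With 1 library left out, 7 to 10 members had non-overlapping groups and were higher, against 7.58% to 15.2% of all genes tested.

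Some single members changed sign, and the cause was not tested. Ndufa4 was -0.050 with limma-voom, -0.31 under the replicate block, -0.026 with the term for numbers 4-5, -0.85 within 4-5 and -0.29 with the replicate block and GC and length correction. In that last fit Ndufs3 was -0.055 and Ndufs8 -0.060. Ndufb2 was -0.0036 under the replicate block and -0.22 within 4-5, Ndufv2 -0.065 within 4-5, and Ndufab1 -0.011 in libraries 3 to 5 without the block. Ndufv3 was 0.0075 with limma-voom, 0.0083 with summed transcripts and 0.37 within 1-3. Ndufaf4 was 0.21, 0.22 and 0.19 with GC and length correction alone, with the number term and with the replicate block. With 1 library left out, Ndufa4 ran from -0.11 to 0.74, Ndufb2 from -0.040 to 0.44, Ndufv2 from -0.019 to 0.38, Ndufv3 from -0.19 to 0.078, Ndufaf2 from -0.20 to 0.0029 and Ndufaf4 from -0.17 to 0.065. Ociad1 ran from -1.75 to -1.29, with adjusted p = 0.0759 without floxed library 1 and 0.0825, 0.0881 and 0.0871 without KO libraries 2, 4 and 5, and 0.218 in libraries 3 to 5 without the block (edgeR). With 4 libraries per genotype, and 2 within each number set, differences near the median standard error of 0.25 could not be resolved.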
